A study of Mus musculus with 6 samples.

Results

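The 10 genes described here encode the cyclins and protein kinases that carry a cell through mitosis: the cyclins Ccna2, Ccnb1 and Ccnb2, their kinase partner Cdk1, the mitotic kinases Plk1, Aurka and Aurkb, and the spindle checkpoint kinases Ttk, Bub1 and Bub1b. They were chosen by name, with earlier results of these data known. Their probes were chosen by the RefSeq accession that the scanner files give for each probe. This gave 14 probes of 55681 on the array, 3 for Ccnb1, 3 for Cdk1 and 1 for each other gene. Of the 14 probes, 13 were among the 32427 that were well above background on at least 3 arrays. The remaining one was a dim Cdk1 probe. Each of the 10 genes was therefore measured, and 14876 named genes were measured in all.

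RNA came from cultured mouse spermatogonial stem cells, the stem cells of the male germline. The captopril group (3 arrays, replicates 2, 3 and 4) received captopril, an inhibitor of angiotensin-converting enzyme, for 24 h at a labelled 0.01 M. The water group (3 arrays, replicates 2, 3 and 4) received sterile water for the same time, and the labels give it the same 0.01 M, a number whose meaning for water is not settled. Both groups were dissociated testis cells, grown on gelatin, passaged, and then moved to medium that held mouse embryonic fibroblasts. No strain, genotype or age is given in the sources used here, and the submitters describe 3 independent experiments without saying whether animals or cultures differed, so the p-values measure the spread between these samples only. The design asks which transcripts differ when somatic angiotensin-converting enzyme is inhibited.

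Cells enter mitosis when Cdk1, bound to a B-type cyclin, becomes active. Cyclin A2 acts before this, in S phase and G2, and both kinds of cyclin are destroyed during mitosis. Plk1 and Aurora A help to switch on Cdk1 and build the spindle poles, Aurora B corrects faulty attachments of chromosomes to the spindle, and Ttk (also called Mps1), Bub1 and Bub1b (BubR1) hold the cell until every chromosome is attached. Transcripts of these genes accumulate together in G2 and mitosis in dividing cells, so that in a bulk sample their level depends on how many cells are dividing. In these samples, fewer cells in G2 and mitosis and less RNA per cell cannot be told apart.

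All values are log2 of the spot signal after background subtraction, minus the 75th percentile of the same array. A value of 0 is therefore a signal at that percentile, and levels of different probes are not compared. Differences are captopril minus water, and tests are by limma with Benjamini-Hochberg adjustment over the 32427 probes and a threshold of 0.05. Water replicate 3 stood apart from the rest: over 32380 probes it correlated with the rest at 0.878 to 0.893, while the other 5 arrays correlated with each other at 0.970 to 0.992. It also had the lowest share of spots well above background, 52.2%, against 57.3% to 60.5% on the others. The fits are therefore given over all 6 arrays and over the 5 arrays without it. All arrays lay on 1 slide, where row 1 held water replicates 2 and 3 and row 2 held water replicate 4 and the 3 captopril arrays. Of 12 germ cell markers 10 were well above background on all 6 arrays. Gfra1 was so on 5 and Taf4b on 4. All 12 fibroblast markers were well above background on all 6. Of 9 Sertoli and Leydig cell markers, Sox9, Wt1, Star and Inha were well above background on all 6 arrays and Gata4 on 1. The other 4, Amh, Cyp17a1, Hsd3b1 and Cldn11, were not well above background on any array.

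The mitotic cyclin and kinase transcripts stood lower on the captopril arrays than on the water arrays, by a median of 0.67 on the log2 scale (log2 fold change −0.67), and all 10 genes had a negative value, against 53.2% of all named genes. The median over all named genes was −0.03. For Ccnb1 the negative value is that of the probe that represents it, its brightest over 6 arrays. Its other probes gave 0.43 and 1.84 over 6 arrays. Ccna2, Ccnb2, Cdk1 and Bub1 had all 3 captopril arrays below all 3 water arrays. This is 4 of 10 genes, against 11.4% of all named genes. Because the 10 genes were chosen with earlier results of these data known, such shares are a description and no test. None of the 10 passed the test over 6 arrays, where limma called 0% of all named genes and 0 of all 32427 probes at an adjusted p under 0.05. At an unadjusted p under 0.05, Ccna2 and Bub1 were lower, 2 of 10 genes, against 4.46% of all named genes and 2866 probes in either direction.

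Without water replicate 3 the probe that represents each gene kept its direction, while the other 2 Ccnb1 probes changed theirs. The median log2 fold change was −0.59, against 0.07 over all named genes, and again all 10 values were negative, against 41.5% of all named genes. Plk1, Ttk and Bub1b joined the genes whose captopril arrays lay below the water arrays, which made 7 of 10, against 15.7% of all named genes. At an unadjusted p under 0.05, Ccna2, Ccnb2, Plk1, Ttk, Bub1 and Bub1b were lower, 6 of 10, against 6.59% of all named genes. No member passed the adjusted threshold, which 0.269% of named genes did. The smallest adjusted p were those of Ccna2 (adjusted p = 0.0656 by limma) and Ttk (adjusted p = 0.0955).

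**Figure D1:**
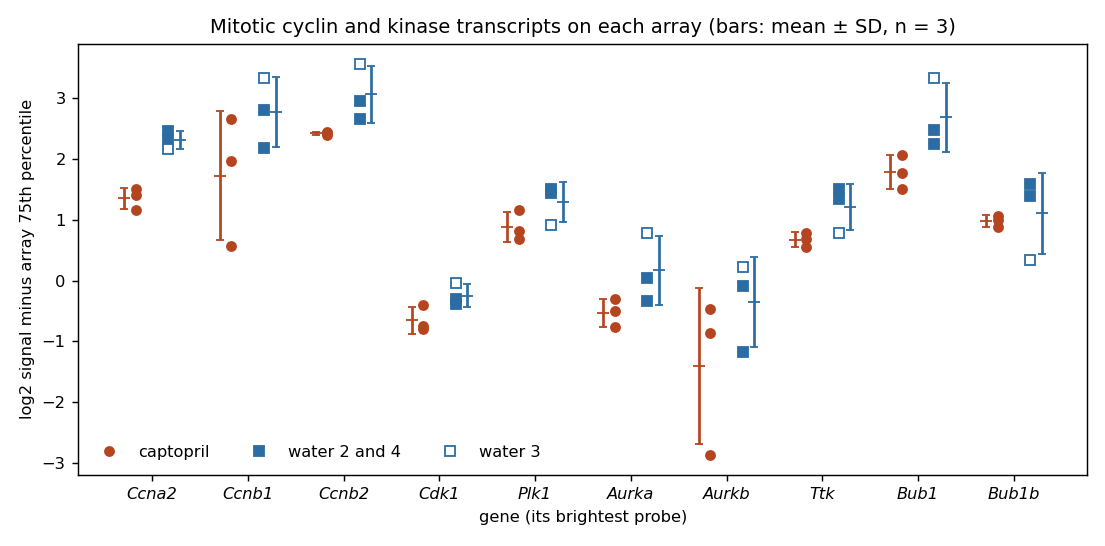
Log2 signal minus the array's 75th percentile (vertical axis) for the brightest probe of each of the 10 genes (horizontal axis), with a point per array, captopril left and water right, and bars for the mean ± SD of 3 arrays. The 3 Ccna2 values with captopril, 1.16 to 1.50, lie below all water values, 2.16 to 2.46, while water replicate 3 (open squares) is the highest value for Ccnb2 and Bub1 and the lowest for Bub1b.

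A fit in which limma estimated a weight for each array from its spread gave water replicate 3 a weight of 0.0527 and captopril replicate 3 a weight of 5.68. In that fit 5 of 10 members passed an adjusted p of 0.05, all lower with captopril, against 4.82% of all named genes. These were Ccna2 (adjusted p = 0.00677 by limma), Ttk (adjusted p = 0.0158), Plk1 (adjusted p = 0.0174), Bub1 (adjusted p = 0.0439) and Bub1b (adjusted p = 0.0493). That setting called 4322 probes, whereas the unweighted fit of the same 6 arrays called none.

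Mitotic promoters are known for CCAAT boxes, which bind the factor NF-Y, and for an element called CHR, which binds the complex that represses these genes in quiet cells and induces them in G2. Promoter windows are shown for 4 of the 10 genes, the B-type cyclin pair and 2 kinases. Each window runs from 250 bases before to 50 after the annotated start, and was taken from RefSeq (GRCm38.p6), where 8 of the 10 genes were matched. The windows are Ccnb1 at chr13:100786437-100786736 (minus strand), Ccnb2 at chr9:70421505-70421804 (minus strand), Plk1 at chr7:122159185-122159484 (plus strand) and Ttk at chr9:83834439-83834738 (plus strand). Capitals mark CCAAT, and the CHR words TTTGAA and TTCGAA, on either strand.
Ccnb1: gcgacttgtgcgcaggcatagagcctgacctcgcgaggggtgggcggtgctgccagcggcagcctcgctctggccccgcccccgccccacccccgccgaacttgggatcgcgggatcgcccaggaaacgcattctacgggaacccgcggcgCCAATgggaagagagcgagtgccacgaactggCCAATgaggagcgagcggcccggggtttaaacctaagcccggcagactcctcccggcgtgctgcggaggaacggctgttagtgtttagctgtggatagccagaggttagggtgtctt
Ccnb2: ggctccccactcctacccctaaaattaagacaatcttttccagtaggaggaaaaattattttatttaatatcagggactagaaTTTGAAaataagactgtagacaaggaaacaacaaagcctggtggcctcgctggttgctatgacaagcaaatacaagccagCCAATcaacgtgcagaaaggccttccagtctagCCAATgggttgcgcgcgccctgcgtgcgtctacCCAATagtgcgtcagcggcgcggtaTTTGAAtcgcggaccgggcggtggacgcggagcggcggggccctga
Plk1: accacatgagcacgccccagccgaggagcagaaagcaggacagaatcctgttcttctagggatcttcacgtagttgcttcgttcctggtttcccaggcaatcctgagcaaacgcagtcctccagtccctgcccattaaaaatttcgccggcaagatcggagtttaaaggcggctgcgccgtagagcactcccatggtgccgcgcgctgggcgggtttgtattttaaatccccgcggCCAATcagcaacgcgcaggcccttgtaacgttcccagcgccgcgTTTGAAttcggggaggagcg
Ttk: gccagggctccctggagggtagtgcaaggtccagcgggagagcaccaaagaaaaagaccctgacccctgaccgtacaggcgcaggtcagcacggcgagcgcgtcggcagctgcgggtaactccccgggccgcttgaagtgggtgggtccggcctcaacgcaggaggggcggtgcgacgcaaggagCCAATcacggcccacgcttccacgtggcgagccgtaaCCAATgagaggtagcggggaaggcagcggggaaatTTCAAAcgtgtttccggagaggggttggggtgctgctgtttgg

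All 8 matched windows held CCAAT, against 37.4% of 32851 windows of the same length in the table. A CHR word was found in 7 of the 8, all but Ccnb1, against 19.2% of windows, and in each of the 7 a CHR word began between 50 bases before the start and the end of the window, against 5.31%. In the Ccnb2 window 3 CCAAT boxes began 87, 54 and 21 bases before the start, and a CHR word began at base 5 after it. In the Plk1 window CCAAT began 14 bases before the start and the CHR word at base 31. The 2 CCAAT boxes of Ttk began 65 and 28 bases before the start, with the CHR word on the minus strand at base 8. TTCGAA reads the same on both strands and was counted once. Only TTTGAA and TTCGAA were searched, so their absence from the Ccnb1 window does not exclude another form of the element. A match is not a bound site, and the arrays do not measure binding. The genes were chosen by name as mitotic genes, whose promoters are known for these elements, so the shares describe that choice. Whether the matches bear on the change with captopril was not tested.

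**Figure D2:**
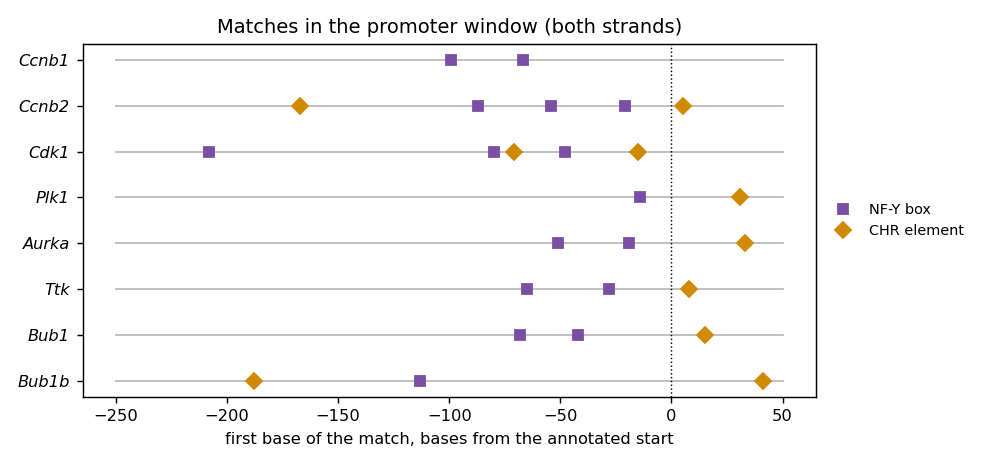
Position of matches in the promoter window of the 8 matched genes, in bases from the annotated start (horizontal axis), with squares for CCAAT (the NF-Y box) and diamonds for CHR words on either strand. In all genes but Ccnb1 a diamond lies close to the start, from 15 bases before it in Cdk1 to base 41 after it in Bub1b.

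Among the cyclins, Ccna2, which activates Cdk2 and Cdk1 before mitosis, had the smallest unadjusted p of the 10 genes. Its level was 1.41, 1.50 and 1.16 on captopril replicates 2, 3 and 4, against 2.46, 2.16 and 2.31 on water replicates 2, 3 and 4. All captopril arrays were low and all water arrays high, water replicate 3 included, and the gap between the groups was wider than the spread within either. The mean was 1.36 ± 0.17 (SD, n = 3) with captopril and 2.31 ± 0.15 (SD, n = 3) in water. The log2 fold change was −0.95 (SE 0.22, 95% interval −1.47 to −0.43, limma adjusted p = 0.553 over 6 arrays), that is, 1.93-fold lower with captopril. Without water replicate 3 it was −1.03 (SE 0.17, 95% interval −1.43 to −0.62).

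Ccnb2, a B-type cyclin that partners Cdk1, stood at 2.45, 2.43 and 2.39 on captopril replicates 2, 3 and 4. Its water values, in the same order of replicates, were 2.96, 3.57 and 2.66. The captopril arrays lay close together below all water arrays, and the water spread came mostly from replicate 3, which was the highest. The log2 fold change was −0.64 (SE 0.28, limma adjusted p = 0.565) over 6 arrays and −0.39 (SE 0.16, limma adjusted p = 0.25) without that array. The spot on captopril replicate 4 carried the scanner program's flag for an uneven or outlying local background.

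The 3 probes of Ccnb1, the main mitotic cyclin, did not give one answer. The probe that represents it (A_55_P2065671), the brightest over 6 arrays but not over the 5 without water replicate 3, stood at 1.97, 0.57 and 2.65 on captopril replicates 2, 3 and 4, against 2.80, 3.34 and 2.18 on water replicates 2, 3 and 4. The groups overlapped, and captopril replicate 3 was far below the other captopril arrays. The log2 fold change of that probe was −1.05 with a 95% interval of −2.42 to 0.33 (limma adjusted p = 0.579) over 6 arrays, and −0.76 (SE 0.56, limma adjusted p = 0.465) over 5. Probe A_55_P2128668 stood at 2.68, 2.54 and 2.60 with captopril, against 2.84, −3.06 and 2.54 in water, so that 5 arrays were nearly level and water replicate 3 alone was low. Its log2 fold change was 1.84 (SE 1.50) over 6 arrays and −0.08 (95% interval −0.47 to 0.32) without that array. Probe A_55_P1952256 stood at 2.64, 2.68 and 1.89 with captopril, against 2.95, 0.38 and 2.59 in water, and gave a log2 fold change of 0.43 (SE 0.68) over 6 arrays and −0.37 (SE 0.28) over 5. Water replicate 3 was thus the highest of the 6 arrays for the first probe and the lowest for the other 2. With A_55_P2128668, the brightest over 5 arrays, in its place, the median of the 10 genes over 5 arrays was −0.55. For Ccnb1 the direction with captopril therefore depends on the probe and on 1 array.

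**Figure D3:**
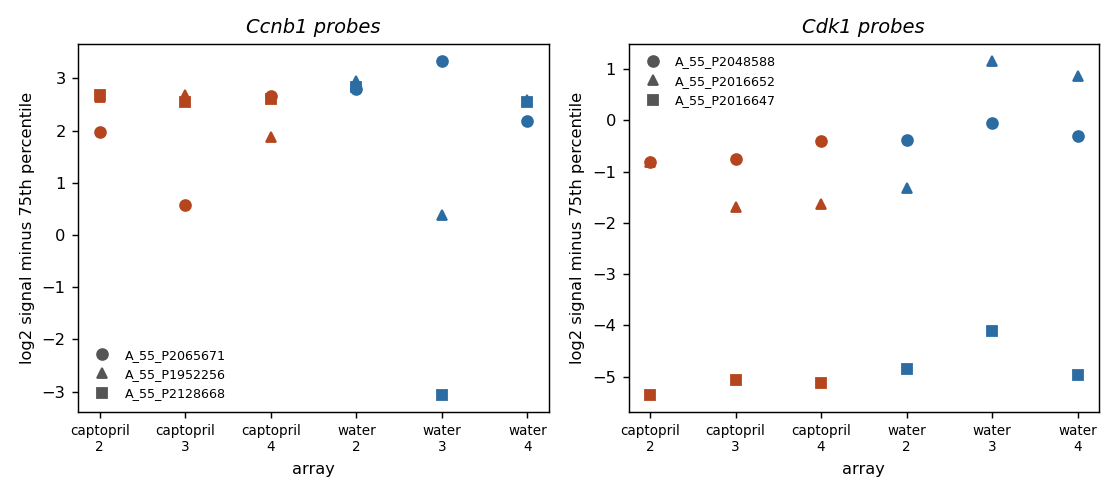
Log2 signal minus the 75th percentile (vertical axis) on each array (horizontal axis, captopril in red and water in blue) for the 3 probes of Ccnb1 and the 3 probes of Cdk1, with a marker shape per probe. On water replicate 3, Ccnb1 probe A_55_P2065671 has its highest value, 3.34, and A_55_P2128668 its lowest, −3.06.

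Cdk1, the kinase that drives entry into mitosis, was measured by 2 probes past the filter. The brighter one (A_55_P2048588) stood at −0.81, −0.76 and −0.40 on captopril replicates 2, 3 and 4, against −0.39, −0.04 and −0.31 on water replicates 2, 3 and 4. The captopril arrays lay below the water arrays, but captopril replicate 4 and water replicate 2 differed by little. The log2 fold change was −0.41 (SE 0.23, 95% interval −0.96 to 0.15) over 6 arrays and −0.30 (SE 0.18) without water replicate 3. The other probe (A_55_P2016652) stood at −0.81, −1.70 and −1.64 with captopril, against −1.33, 1.17 and 0.88 in water, and its groups overlapped through water replicate 2. It gave −1.62 (SE 0.68, limma adjusted p = 0.563) over 6 arrays and −1.15 (SE 0.61) over 5. The dim probe (A_55_P2016647) was well above background on no captopril array and on water replicates 2 and 3, and stood at −5.36, −5.07 and −5.13 with captopril, against −4.85, −4.10 and −4.98 in water. Its water mean was 1.37-fold above the captopril floor, which is the higher, per array, of its own signal and the lowest signal well above background. Without water replicate 3 that ratio was 1.14-fold, water replicate 4 was itself not well above background, and neither ratio was tested.

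Plk1, the Polo-like kinase of mitotic entry and spindle assembly, stood at 0.68, 0.81 and 1.16 on captopril replicates 2, 3 and 4, against 1.51, 0.92 and 1.44 on water replicates 2, 3 and 4, so that water replicate 3 alone lay among the captopril values. Plk1 had a log2 fold change of −0.41 (SE 0.27) over 6 arrays. Without that array it was −0.60 (SE 0.19, 95% interval −1.04 to −0.15, limma adjusted p = 0.167), and the groups did not overlap.

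The Aurora kinases had the less regular values. Aurka, the spindle pole kinase, stood at −0.77, −0.50 and −0.31 on captopril replicates 2, 3 and 4, against 0.05, 0.78 and −0.33 on water replicates 2, 3 and 4. Water replicate 4 lay just below captopril replicate 4, so the groups overlapped with and without water replicate 3. Aurka had a log2 fold change of −0.70 (SE 0.34) over 6 arrays and −0.39 (SE 0.21, 95% interval −0.88 to 0.10) over 5. Aurkb, the kinase of the chromosomal passenger complex, stood at −0.47, −0.87 and −2.88 on captopril replicates 2, 3 and 4, against −1.18, 0.22 and −0.09 on water replicates 2, 3 and 4. Captopril replicate 4 was far below every other array, and water replicate 2 was below the other captopril arrays. Its log2 fold change of −1.06 (95% interval −2.71 to 0.60 over 6 arrays) was within that spread, and so was that of −0.77 over 5 (SE 0.70, limma adjusted p = 0.549). Leaving out captopril replicate 4 put the log2 fold change at −0.32 with water replicate 3 kept. With both arrays left out it was −0.037. The water replicate 4 spot of Aurkb carried the background flag too, as did Ccnb1 probe A_55_P1952256 on captopril replicates 2 and 3 and water replicate 2.

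The spindle checkpoint kinase Ttk, which starts checkpoint signalling at unattached chromosomes, stood at 0.69, 0.79 and 0.55 on captopril replicates 2, 3 and 4, against 1.34, 0.78 and 1.51 on water replicates 2, 3 and 4. As for Plk1, water replicate 3 lay among the captopril values and the other water arrays above them. Ttk had a log2 fold change of −0.53 (SE 0.26) over 6 arrays and −0.75 (SE 0.16, 95% interval −1.13 to −0.36) without water replicate 3.

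Bub1, a checkpoint kinase that marks the centromere, was printed 10 times on each array, and its value is the mean of those spots. It stood at 2.07, 1.78 and 1.50 on captopril replicates 2, 3 and 4, against 2.26, 3.33 and 2.48 on water replicates 2, 3 and 4. All captopril arrays lay below all water arrays, with captopril replicate 2 close to water replicate 2. The SD between its spots on 1 array was 0.057 to 0.36, from 9 or 10 spots. It was 0.14 on captopril replicate 2 and 0.34 on water replicate 2. This is the spread of single spots, not of their mean. The log2 fold change was −0.91 (SE 0.34, limma adjusted p = 0.563) over 6 arrays and −0.58 (SE 0.21, limma adjusted p = 0.197) over 5.

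Bub1b, whose product helps to inhibit the anaphase-promoting complex, stood at 1.06, 1.00 and 0.88 on captopril replicates 2, 3 and 4, against 1.38, 0.34 and 1.59 on water replicates 2, 3 and 4. Water replicate 3 was the lowest of all arrays and the other water arrays were the highest. Bub1b had a log2 fold change of −0.13 (SE 0.36) over 6 arrays and −0.51 (SE 0.16, 95% interval −0.89 to −0.13, limma adjusted p = 0.164) without that array.

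**Figure D4:**
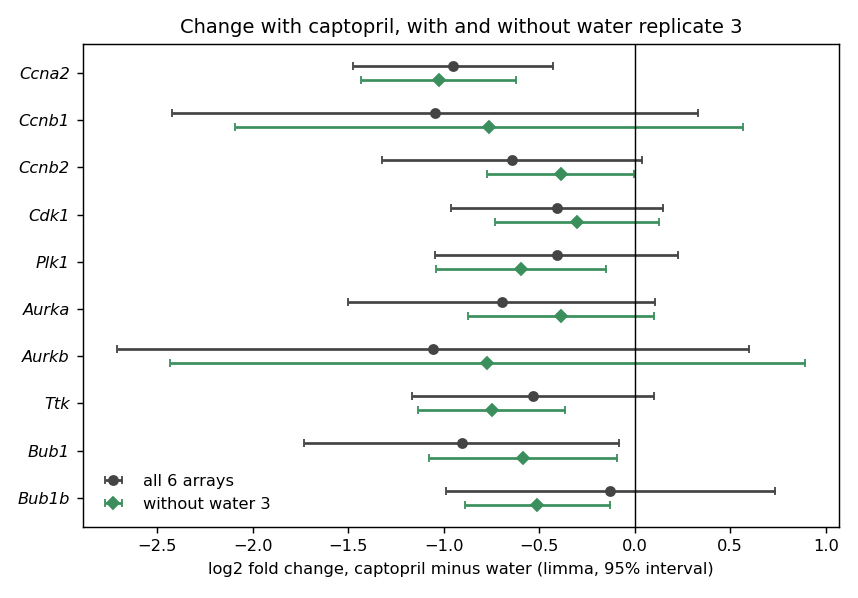
Log2 fold change, captopril minus water (horizontal axis), with limma's 95% interval for each gene (vertical axis), over all 6 arrays (circles) and without water replicate 3 (diamonds). All 20 estimates, each from the probe that represents the gene, lie below 0, and the intervals of Ccnb1 and Aurkb are the widest.

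Water replicate 3 did not move the 10 genes in one direction. It was the highest water array for Ccnb1, Ccnb2, Cdk1, Aurka, Aurkb and Bub1, and the lowest for Ccna2, Plk1, Ttk and Bub1b. Over the members, the median SD within a group was 0.226 with captopril and 0.516 in water, and 0.153 over water replicates 2 and 4. Water replicate 4 was the single water array in the same slide row as the captopril arrays. Set against it alone, the captopril mean was lower for the representing probe of all 10 genes, by 0.20 for Aurka to 1.32 for Aurkb. The other Ccnb1 probes differed by 0.074 (A_55_P2128668) and −0.19 (A_55_P1952256), and the median over all probes was 0.14. Such a difference carries no spread between water arrays. The median of the 10 genes, each relative to its own mean over 6 arrays, was −0.29, −0.31 and −0.26 on captopril replicates 2, 3 and 4, against 0.28, 0.62 and 0.30 on water replicates 2, 3 and 4. The captopril arrays agreed closely and lay below every water array.

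Of the genes that act with these kinases, given here from lists drawn up with earlier results of these data known, none passed the adjusted test in either direction, in either fit. Their counts over 6 arrays are to be read against the 53.2% of all named genes with a negative value and the 11.4% lower without overlap. Regulators of Cdk1 had a median log2 fold change of −0.31 over 6 arrays, with 14 of 18 values negative and 6 genes lower without overlap, and of −0.22 without water replicate 3. Ccnh, a cyclin of the kinase that activates Cdk1, had the smallest p in that list: its level was −1.70, −1.75 and −1.73 on captopril replicates 2, 3 and 4, against −0.69, −0.90 and −0.83 on water replicates 2, 3 and 4. Its log2 fold change was −0.92 (SE 0.20) over 6 arrays and −0.96 (SE 0.15, limma adjusted p = 0.0579) over 5, so that its groups, like those of Ccna2, stood apart with water replicate 3 among the other water arrays. Partners of the Aurora and Polo kinases had a median of −0.21, with 11 of 16 negative and 4 lower without overlap, and of −0.24 over 5 arrays. The gene with the smallest p there was Tpx2, which activates Aurora A on spindle microtubules. It stood at 1.36, 0.58 and 1.33 on captopril replicates 2, 3 and 4, against 1.99, 1.90 and 2.03 on water replicates 2, 3 and 4, and its log2 fold change was −0.88 (SE 0.28) over 6 arrays and −0.92 (SE 0.26) over 5. Its other probe gave −0.72 and −0.73.

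Partners in the spindle checkpoint had a median of −0.29 in both fits, with 11 of 15 values negative over 6 arrays and 12 over 5. Nuf2, a subunit of the kinetochore complex that holds microtubules, had the smallest p over 5 arrays. It stood at 0.28, 0.23 and 0.09 on captopril replicates 2, 3 and 4, against 1.00, 0.44 and 0.89 on water replicates 2, 3 and 4, a log2 fold change of −0.57 (SE 0.24) over 6 arrays and of −0.74 (SE 0.15) over 5. The anaphase-promoting complex and its regulators, which destroy the mitotic cyclins, had a median of −0.12 over 6 arrays (14 of 20 negative) and of −0.00019 over 5 (10 of 20 negative). Within that list Fbxo5, an inhibitor of the complex, had the smallest p, with a log2 fold change of −0.62 (SE 0.23) over 6 arrays and −0.53 (SE 0.18) over 5. Transcription factors of G2 and mitosis genes had a median of −0.24 (13 of 15 negative) and of −0.21 over 5 arrays. Rbl1, a pocket protein of the complex that represses these genes, had the smallest p there, with −0.95 (SE 0.40) over 6 arrays and −0.50 (SE 0.14) over 5, and its other probe gave −0.63 and −0.68.

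Proliferation markers had lower medians than all named genes as well, at −0.26 over 6 arrays and −0.19 over 5. Mki67, which is made in all dividing cells, stood at 2.85, 2.76 and 3.16 on captopril replicates 2, 3 and 4, against 3.40, 4.10 and 3.30 on water replicates 2, 3 and 4, without overlap, a log2 fold change of −0.68 (SE 0.29) over 6 arrays and −0.43 (SE 0.18) over 5. The other Mki67 probe gave −1.19 and −0.84. Top2a, the topoisomerase of G2 and mitosis, stood at 2.21, 2.17 and 2.31 with captopril, against 2.74, 1.52 and 2.90 in water, so that water replicate 3 was again the exception. Its log2 fold change was −0.16 (SE 0.39) over 6 arrays and −0.59 (SE 0.15, limma adjusted p = 0.121) over 5. The replication genes Pcna, Mcm2 and Mcm6 had log2 fold changes of −0.25, −0.27 and −0.27 over 6 arrays and of −0.10, −0.04 and −0.01 over 5, with groups that overlapped in both. Mcm5 had a log2 fold change of −0.10 over 6 arrays, where its groups overlapped. Over 5 arrays it was −0.27 and the groups did not overlap, as for the 15.7% of all named genes that were lower without overlap in that fit.

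**Figure D5:**
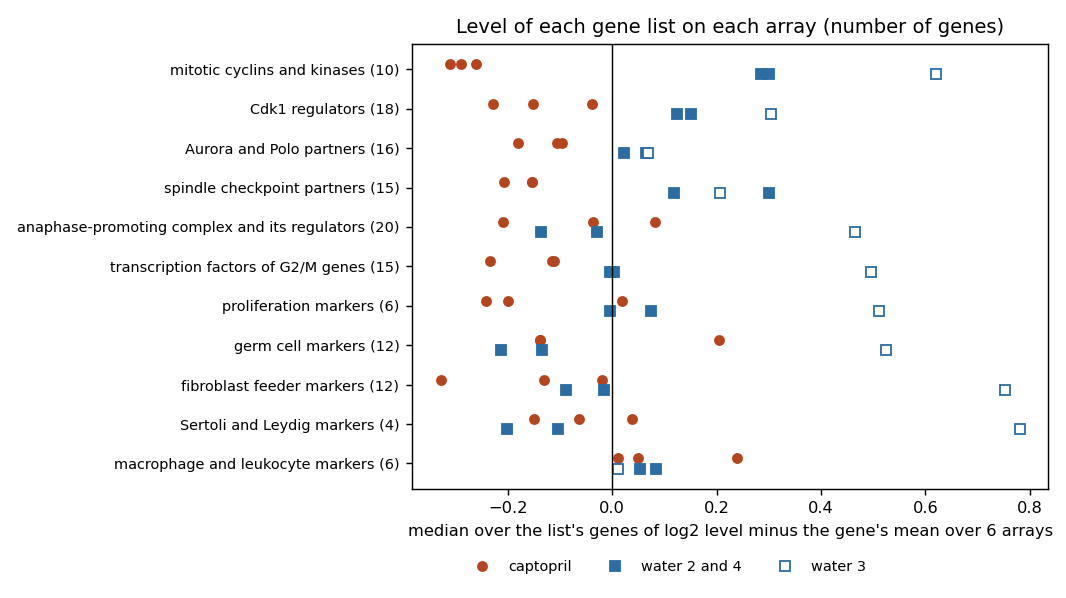
Median over the genes of each list of the log2 level minus the gene's mean over 6 arrays (horizontal axis), for each array, with the number of genes measured in brackets after each list (vertical axis). The captopril arrays lie between −0.31 and −0.26 for the mitotic cyclins and kinases, below all water arrays, and water replicate 3 (open squares) lies at 0.75 for fibroblast markers and 0.62 for the mitotic genes.

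Marker lists of the cells in the culture did not separate the groups in the same way. Germ cell markers stood between −0.14 and 0.20 on the captopril arrays and between −0.21 and 0.52 on the water arrays. Their summed signal, in units of the 75th percentile, was 78.6 to 103 with captopril, against 73.7 to 130 in water. Fibroblast markers stood between −0.33 and −0.02 with captopril and between −0.09 and 0.75 in water, with summed signals of 130.1 to 161 against 143 to 260.2. Sertoli and Leydig markers, of which 4 were measured, summed to 0.889 to 1.03 with captopril and to 0.887 to 1.78 in water. Macrophage and leukocyte markers summed to 45.2 to 57.9 with captopril and to 40.1 to 66.7 in water. For these 4 lists the groups overlapped. The summed signal of the 10 mitotic genes was 20.4 to 23.8 with captopril, against 32.5 to 45.3 in water. The sums of the Cdk1 regulators, of the Aurora and Polo partners and of the G2 and mitosis transcription factors did not overlap either, while those of the spindle checkpoint partners, the anaphase-promoting complex list and the proliferation markers did. Water replicate 3 had the highest sum in all 4 cell type lists. It also had the highest sum for the 10 mitotic genes, 45.3, and for each other list. The sum of the 10 genes counts Ccnb1 by the probe that represents it, which stood at 3.34 on water replicate 3, where probe A_55_P2128668 stood at −3.06. A sum with that other probe was not taken. Of the 12 fibroblast markers 5 were lower with captopril at an unadjusted p under 0.05 in either fit, led by Col3a1, a fibrillar collagen, and the median of the list was −0.49 over 6 arrays and −0.22 over 5. None passed the adjusted test. At that unadjusted p, 4.46% of all named genes were lower over 6 arrays and 6.59% over 5. Over 5 arrays 4 of 12 values were positive. Without overlap, 5 of the 12 were lower with captopril and 3 higher, which were Col1a2, Pdgfra and Thy1, named after their values were seen. Of all 32427 probes over 5 arrays, 43.7% did not overlap in either direction and 14% were lower without overlap. The part of cell composition in the values of the mitotic genes was not tested.

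By the root mean square difference from the median profile of the 10 genes over the 6 arrays, the gene most like them among 14866 others was Cep57, which encodes a centrosome protein, at 0.068. It stood at −0.80, −0.80 and −0.73 on captopril replicates 2, 3 and 4, against −0.23, 0.05 and −0.16 on water replicates 2, 3 and 4. The next were Ddit4, an inhibitor of mTOR signalling induced by stress, at 0.0782, the splicing factor gene Tra2b at 0.0807, 1700029P11Rik at 0.082, and Rtn1, a reticulon of the endoplasmic reticulum, at 0.0869. The log2 fold changes of these 5 genes over 6 arrays were −0.66, −0.70, −0.62, −0.67 and −0.63 in that order, and none passed the test in either fit. Because these genes were picked for likeness to that profile on the same arrays, values near those of the members follow from the choice.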

How the data were processed

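Total RNA from 6 samples, 3 with captopril and 3 with water, was hybridised with a Cy3 label to 6 one-colour mouse arrays. The deposited scanner files hold spot intensity, and per the file headers Agilent Feature Extraction 11.5.1.1 subtracted the background, while the submitters' processing notes name version 10.7. The authors' deposited value table holds log2 values. Each array of it differed from log2 of the scanner signal by a constant, with 100% of values within 0.01, and its medians were −3.72, −3.63 and −3.62 for captopril replicates 2, 3 and 4 and −3.80, −4.24 and −3.79 for water replicates 2, 3 and 4. Its scale is therefore log2 and its zero lies near the 75th percentile.

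Control spots and spots marked as feature outliers were left out, which cost 63 probes at least 1 array, and spots of a probe were averaged. Values were log2 of the processed signal minus the array's 75th percentile, and probes well above background on at least 3 of 6 arrays were kept. Of 55681 probes, 26762 were named by 1 symbol, and 98.1% of RefSeq mRNA accessions matched the RefSeq gene table (GRCm38.p6). The other 28919 stayed unnamed. A gene was represented by its brightest probe. Captopril was compared with water in limma 3.58.1 (R 4.3.3), two-sided, over 6 arrays and without water replicate 3, with 95% intervals. The calculation was tested on simulated data.

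Named genes were the members with all probes, the gene with the smallest p in each pathway list, the proliferation markers, and the 5 genes nearest to the members' median profile. The members and lists were chosen with earlier results of these data known. Arrays with the same replicate number did not deviate together (correlations 0.007, 0.029 and −0.148 for numbers 2, 3 and 4), so no pairing was used. Alternatives covered background correction, scaling, filter, threshold, array weights, slide row, the replicate number and leaving out arrays. The number of arrays limits the precision.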

Additional observations from a re-analysis of the deposited data

How the results depend on the processing

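The cause of the changes given here was not tested. Over 6 arrays, the members' median log2 fold change was −0.97 with scaling by the median, which moved the median of all probes to −0.24 from 0.07, and −0.52 with array weights, and leaving out 1 array put it between −0.88 and −0.59. Members lower without overlap numbered 7 with scaling by the median (21.6% of all named genes), 8 in slide row 2 alone (23.7%), where 1 water array is left and the spread comes from the captopril arrays, and 4 to 7 with 1 array left out (13.5% to 17.9%). Array weights called 4322 probes and 5 members, slide row as a block called 2 probes, slide row 2 alone 3, and leaving out 1 array 0 to 91, with 0 members. The Ccnb1 probe A_55_P1952256 turned to −0.11 with array weights, to −0.19 with slide row as a block or row 2 alone, and to −0.37 without water replicate 3, in a range of −0.37 to 0.92 with 1 array left out. Probe A_55_P2128668 turned to −0.039 with array weights and to −0.079 without water replicate 3, in a range of −0.079 to 2.87. Over 5 arrays it turned to 0.074 without water replicate 2, in a range of −0.23 to 0.074. Bub1b turned to 0.01 without water replicate 2 and to 0.12 without water replicate 4, in a range of −0.51 to 0.12, the 2 settings with 9 rather than 10 negative members. The median of the anaphase-promoting complex list turned to 0.024 with array weights and to 0.037 with slide row as a block or row 2 alone. Over 5 arrays, the count of probes called, 91, was 181 with normexp, 0 with quantile normalization, scaling by the median or no filter (6327, 6288 and 6903 at an unadjusted p under 0.05 by limma), 59 from the authors' deposited table, 1087 at an adjusted p of 0.1, 433 with the replicate block, 46 with spots of outlying background also left out (chosen after seeing the data), and 0 to 3 with 1 further array left out. At an adjusted p of 0.1, 2 of 10 members were called, Ccna2 and Ttk, beside 1087 of all 32427 probes, 772 of them higher with captopril. The members' median was −0.55 with normexp, −0.63 with quantile normalization, −0.72 with scaling by the median, −0.54 with the replicate block, −0.54 without spots of outlying background and −0.64 to −0.48 with 1 further array left out, and 7 to 9 members were lower without overlap (18.4% to 24.3% of all named genes, with 1 water array left where a water array was dropped). With each gene's brightest probe over 5 arrays (chosen after seeing the data) the members' median was −0.55. The replicate block over 6 arrays called 0 probes (2116 at an unadjusted p under 0.05 by limma), with a members' median of −0.67. Not every array correlated best with its own number. Of the members' probe values under the alternatives, 244 of 257 over 6 arrays and 189 of 192 over 5 kept their direction and their side of the threshold. Alternatives that change only the threshold, the filter or the variance estimate cannot change a direction, so these counts overstate what was tested.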
